A study of Mus musculus with 8 samples.

Results

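Genes of Schwann cells and of satellite glia, the glial cells of peripheral nerves and ganglia, were followed on 8 mouse Affymetrix arrays. The 30 genes fall into 3 classes: 10 genes of glial precursors and the early Schwann lineage, 9 of myelin and 11 of satellite glia. They were chosen by name, with earlier results of these data known. Every probe set whose annotation names one of them alone was taken. That gave 66 probe sets for 29 genes, of 18194 genes named on the array. No probe set in the annotation used here names Prx, the periaxin gene, alone, and it was not analysed.

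Total RNA from mouse was hybridised to 4 arrays of a group called Exp and 4 of a group called Ctrl, numbered 1 to 4 in each. The labels give no genotype, strain, treatment or age for either group, and the tissue is described as trigeminal ganglion but sourced as brain, adrenal medulla. Nothing states that each array came from a separate animal, so a p-value here reflects the spread among the arrays alone, which may be technical.

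As background, Schwann cells and satellite glia both descend from neural crest cells. Schwann cells line and myelinate axons under the control of neuregulin, which axons present to the ErbB3 receptor, and of the transcription factor Sox10. Satellite glia wrap the cell bodies of sensory neurons in ganglia such as the trigeminal, and they take up glutamate and buffer potassium around them.

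The values are deposited linear signals, 1 per probe set and array. For tests they were taken as log2(signal + 16) and quantile normalized, so a log2 fold change is that of signal + 16, Exp minus Ctrl. Probe sets whose mean lay below the 40th percentile (signal 333) were not tested. All 8 arrays correlated closely over the 27022 tested probe sets (r = 0.968 to 0.98 within and 0.968 to 0.979 between groups). The trimmed mean was 2500 on each array and the medians ran from 478 to 553, and the number of arrays limits the precision. The Actb control's 3' over 5' signal ratio averaged 4.55 log2 units in Exp and 4.36 in Ctrl (exact permutation test, two-sided, p = 0.0571, n = 4 each). It ran from 4.31 to 4.67 over the 8 arrays, so the 3' signal of this control was far above its 5' signal on each. Whether such a bias affected the dim or disagreeing probe sets below was not tested.

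The tissue was checked against markers of other cell types. Of 9 sensory neuron markers on the array, 9 passed the filter, with a summed signal of 517665 to 601548 in Exp and 502008 to 562336 in Ctrl. Of 6 chromaffin and sympathetic markers on the array 4 passed. Among them Th, tyrosine hydroxylase, read 4044 to 5635 in Exp and 4434 to 6440.1 in Ctrl, while Dbh, dopamine beta-hydroxylase, lay under the filter. Of 4 markers of adrenal cortex 3 passed. Of 10 markers of central glia 5 passed. Among them Aqp4, the water channel of astrocytes, read 5299 to 6722 in Exp and 4939.8 to 6479 in Ctrl, while Mog, of oligodendrocyte myelin, lay under the filter. Of the peripheral glial genes, 23 of 29 had at least 1 tested probe set. The 6 others were the precursor genes Sox9 and Pou3f1, the myelin genes Mag, Gjb1 and Gjc3, and the satellite glia gene Gfap.

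Promoter letters are shown for 4 of the members to set sequence beside the signals: Plekhb1, with the largest difference, Cnp and Gjb1, a bright and a dim myelin gene, and Fabp7, with almost none. The sequences are the 250 bases before a transcript start from RefSeq, build GRCm38.p6, 5′ to 3′ on the gene's strand. Capitals mark the Sox letters ACAAAG or ACAATG and the Egr letters GTGGGNG, on either strand.
Plekhb1 (chr7:100662395-100662644, minus strand, the start furthest upstream): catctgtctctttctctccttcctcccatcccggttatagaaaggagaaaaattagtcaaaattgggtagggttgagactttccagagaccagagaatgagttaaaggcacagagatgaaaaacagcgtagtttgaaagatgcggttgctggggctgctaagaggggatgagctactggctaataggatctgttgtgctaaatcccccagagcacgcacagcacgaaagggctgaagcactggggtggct
Cnp (chr11:100574689-100574938, plus strand): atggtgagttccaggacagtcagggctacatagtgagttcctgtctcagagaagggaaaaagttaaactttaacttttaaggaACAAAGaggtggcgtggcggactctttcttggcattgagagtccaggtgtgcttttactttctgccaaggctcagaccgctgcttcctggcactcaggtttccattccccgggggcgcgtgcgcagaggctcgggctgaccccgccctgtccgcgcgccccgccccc
Gjb1 (chrX:101383482-101383731, plus strand, the start furthest downstream): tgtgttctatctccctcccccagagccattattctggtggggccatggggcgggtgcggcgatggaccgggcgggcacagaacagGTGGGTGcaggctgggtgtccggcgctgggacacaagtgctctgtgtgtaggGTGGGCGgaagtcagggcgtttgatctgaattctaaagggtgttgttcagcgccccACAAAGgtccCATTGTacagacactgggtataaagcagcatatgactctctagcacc
Fabp7 (chr10:57784673-57784922, plus strand): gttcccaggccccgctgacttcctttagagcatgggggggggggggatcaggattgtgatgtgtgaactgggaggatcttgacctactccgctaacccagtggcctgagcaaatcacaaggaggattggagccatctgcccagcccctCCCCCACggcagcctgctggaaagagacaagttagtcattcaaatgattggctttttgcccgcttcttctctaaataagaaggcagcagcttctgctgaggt
The Gjb1 window printed here, the one of its 4 with the most such matches, held 2 Sox and 2 Egr matches, and the other 3 held 1, 0 and 0 Sox and no Egr matches. The Cnp window held 1 Sox match. The Fabp7 window held 1 Egr match and the Plekhb1 window printed here none, while the window at the other Plekhb1 start held 1 of each. Of the 23 members with a promoter in the table, 6 had Sox letters in at least 1 window, against 28.2% of all 27025 genes in it, and 11 had Egr letters, against 30.8%. The AP-2 letters GCCNNNGGC stood in windows of 8 members, against 15.4% of all genes, and the E-box CANNTG in those of 18, against 69.3%. A gene counted if any of its windows matched, and the 23 members had 35 windows. By window, Sox letters stood in 8 of 35, against 25.2% of all 32851 windows, and Egr letters in 12, against 28.1%. AP-2 letters stood in 10 of the 35, against 13.7%, and the E-box in 22, against 66.2%. Both strands were searched for each, matches of different motifs may share bases, and they describe letters only.

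Most of the peripheral glial genes averaged slightly lower in Exp than in Ctrl, with the largest mean differences in Plekhb1, Slc1a3, Mal and Mbp, but none of these differences passed the test. No member passed the 5% false discovery rate in limma, where 1 of 27022 probe sets did (0.0037%). The smallest adjusted p of a member was 0.999. With each gene read by its tested probe set of highest mean, 20 of 23 members averaged lower in Exp, where 54.8% of all 12763 tested genes did. The median log2 fold change was -0.11 over the members and -0.02 over all tested genes. An unadjusted p below 0.05 with a lower Exp mean was found for 2 of 23 members, Plekhb1 and Sox10, against 2.26% of all genes, and with a higher Exp mean for 0 of 23, against 1.47%. Over all 43 tested member probe sets 34 averaged lower, against 51.7% of all tested probe sets. Of the 43, 4 had an unadjusted p below 0.05 with a lower Exp mean, against 2.51%, and 0 had one with a higher Exp mean, against 2.19%. The 4 were the brightest of Plekhb1 and of Sox10 and the Mbp probe sets 1433532_a_at and 1454651_x_at. Mbp alone had 7 tested probe sets. Probe sets of 1 gene, and genes that vary together across the arrays, are not independent, so these counts are descriptions only. The groups did not overlap for 1 of 43 with Exp lower, against 1.28%, and for 0 with Exp higher, against 1.05%. For 22 of the 23 genes, each read by its brightest tested probe set, the 95% confidence interval excluded a doubling or halving, and Slc1a3 was the exception. The same held for 12148 of all 12763 tested genes, so it is no trait of the members. A dimmer Mbp probe set, 1454651_x_at, had an interval of -1.48 to -0.10, which includes a halving. In bulk RNA, fewer cells of a type and less RNA per cell cannot be told apart.

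**Figure D1:**
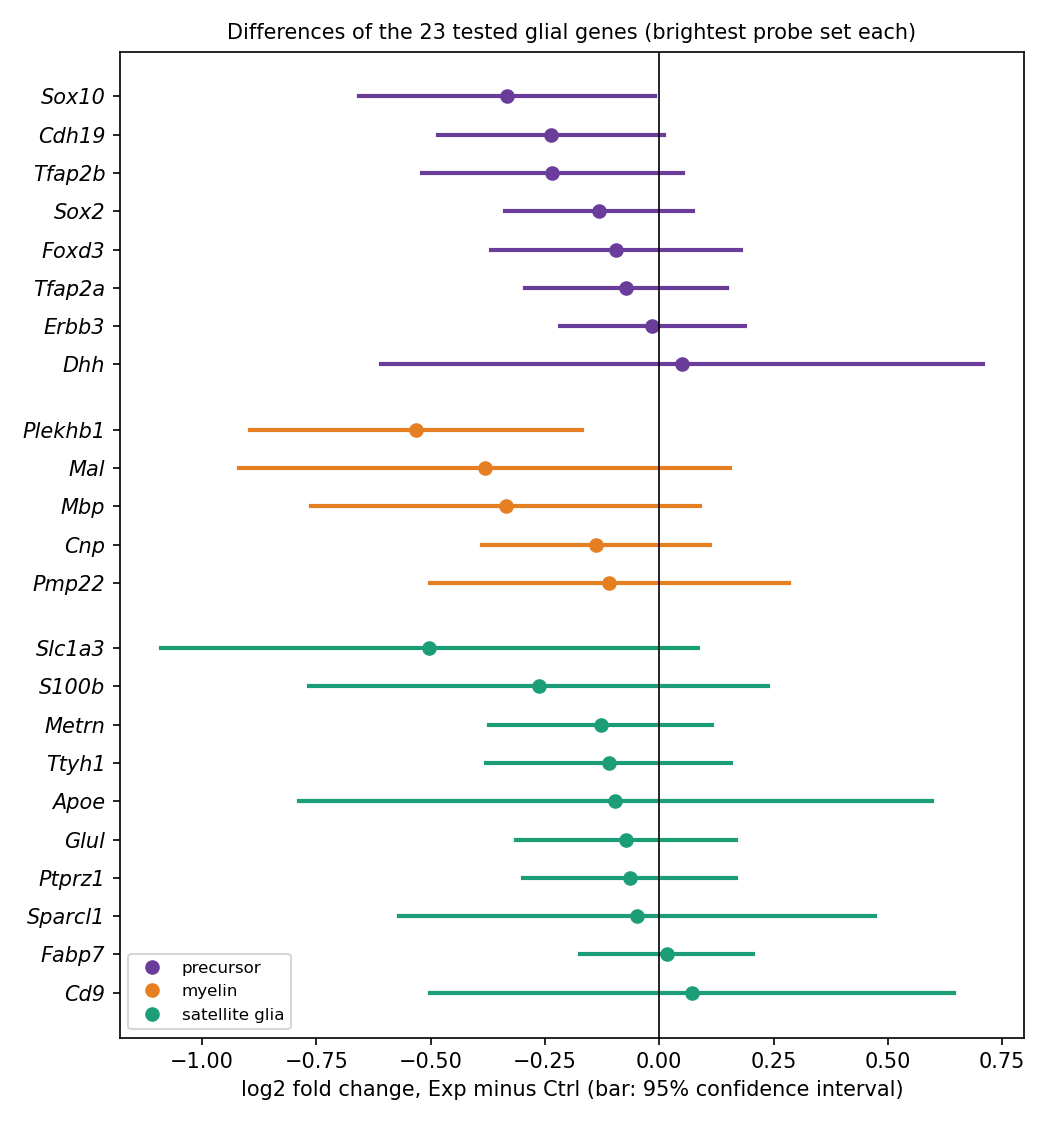
Log2 fold change (x axis, Exp minus Ctrl) of the 23 tested glial genes (y axis), brightest probe set each, by class; points are estimates and bars 95% confidence intervals from limma. Estimates of 20 genes lie below 0, and the intervals of Plekhb1 and Sox10 do not reach 0, though neither passed after adjustment.

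Among the precursor genes, 7 of 8 tested genes averaged lower in Exp, with a class median of -0.11. Sox10, which specifies peripheral glia and stays on in them, had signals of 8184.5, 9872, 11833 and 11349 on Exp 1 to 4, against 13046, 11306, 14265.5 and 13403 on Ctrl 1 to 4. Exp 1 was the lowest array, and Exp 3 and Exp 4 overlapped with Ctrl 2. The log2 mean was 13.33 ± 0.24 in Exp and 13.66 ± 0.15 in Ctrl (SD, n = 4 each), a difference of -0.33 (SE 0.14, limma unadjusted p = 0.0447). Without Exp 1 the difference was -0.22. Its second tested probe set differed by -0.22 (SE 0.22).

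Cdh19, a cadherin of Schwann cell precursors, gave 5827, 5775.5, 4889.5 and 4949.7 on Exp 1 to 4, against 5950.5, 6842, 7086 and 5806 on Ctrl 1 to 4. In these deposited signals only Exp 1 reached a Ctrl array, lying just above Ctrl 4, and the log2 difference was -0.24 (SE 0.11, limma unadjusted p = 0.0578). Tfap2b, an AP-2 factor of the neural crest, gave 1613, 1609, 1446 and 1242 on Exp 1 to 4, against 1632, 1506, 1740.2 and 1973 on Ctrl 1 to 4. After normalization all 4 Exp arrays lay, in part by a narrow margin, below all 4 Ctrl arrays, which held for 1 of 23 members and, in that direction, for 1.24% of all genes, and the difference was -0.23 (SE 0.13, limma unadjusted p = 0.0979). In the deposited signals Ctrl 2 lay below Exp 1 and Exp 2, so the separation rests on the normalization. Without Exp 4 the difference was -0.15, and without Ctrl 4 -0.16.

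Sox2, which keeps glial progenitors immature, gave 13133, 11797, 12749 and 12476 on Exp 1 to 4, against 12754.5, 14575.5, 13475 and 14762 on Ctrl 1 to 4. Exp 1 lay above Ctrl 1, and the difference was -0.13 (SE 0.09, limma unadjusted p = 0.181). Erbb3, the neuregulin receptor on which Schwann precursors depend, gave 14637, 14802, 14149.9 and 13818.5 on Exp 1 to 4, against 15159, 13883, 15293 and 14362 on Ctrl 1 to 4. The groups overlapped, with a difference of -0.01 (SE 0.09, limma unadjusted p = 0.867) and a 95% confidence interval of -0.22 to 0.19.

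The other 3 tested precursor genes had small mean differences. The neural crest factors Foxd3 and Tfap2a differed by -0.09 (SE 0.12) and -0.07 (SE 0.10), and a second Tfap2a probe set by -0.02 (SE 0.12). Dhh, the hedgehog ligand that Schwann cells send to the nerve sheath, read 1817 to 4712 in Exp and 2848 to 3748 in Ctrl. Exp 3 was the lowest and Exp 2 and Exp 4 the highest of all arrays, and the difference of 0.05 (SE 0.29) came with a wide spread in Exp. Under the filter, the brightest probe set of Sox9, a factor of early crest and glial progenitors, read 105 to 564.5 in Exp and 80.3 to 376 in Ctrl. That of Pou3f1, the factor of Schwann cells about to myelinate, read 198 to 392.3 in Exp and 65.4 to 424 in Ctrl.

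**Figure D2:**
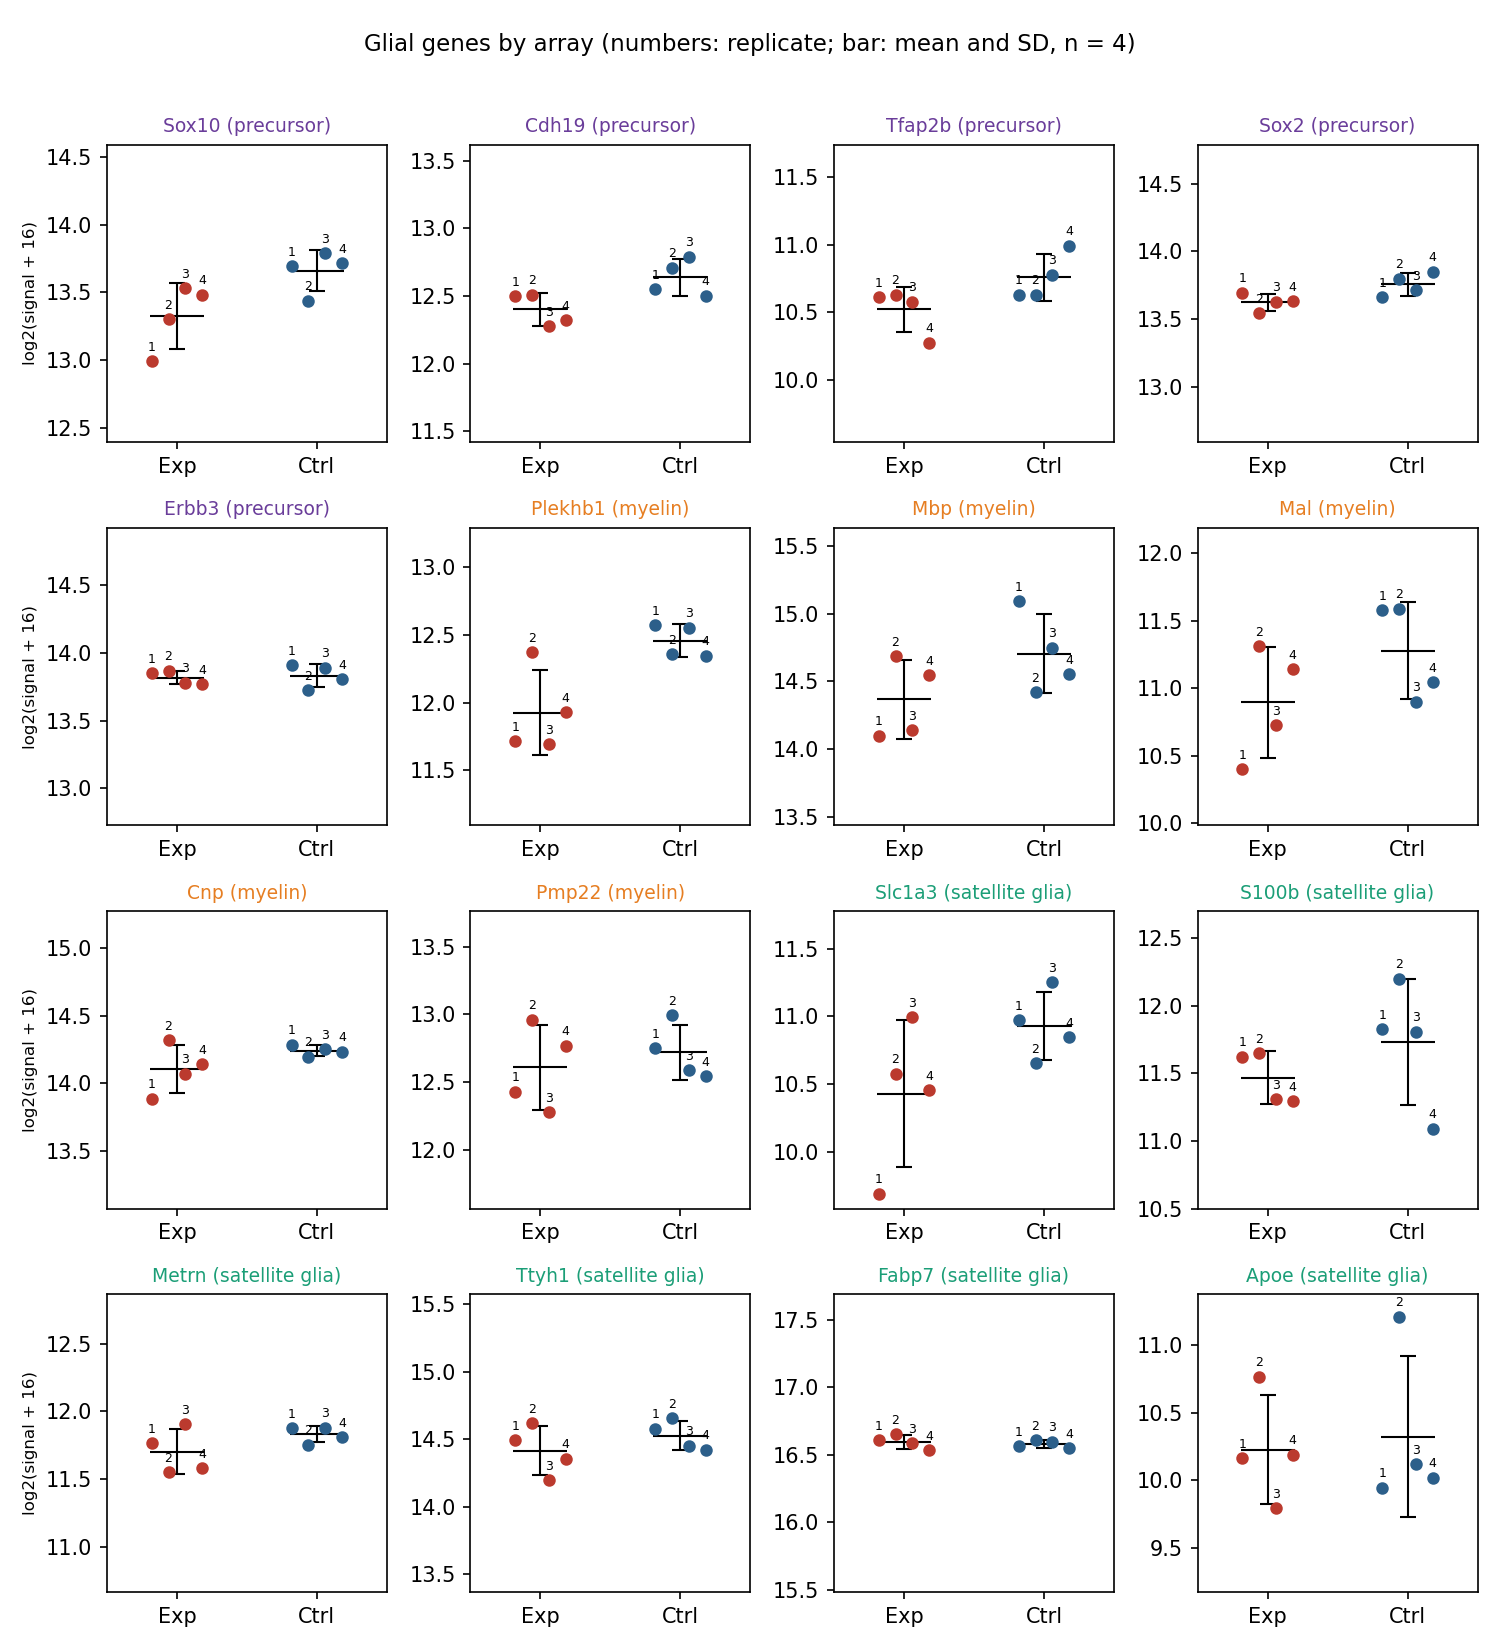
Log2(signal + 16) after quantile normalization (y axis, each panel centred on its gene and of equal span) of 16 glial genes on the 4 Exp and 4 Ctrl arrays (x axis); points are arrays with their numbers, bars the mean and SD. Exp 1 and Exp 3 are the lowest arrays for Plekhb1, Mbp, Mal and Pmp22, and Fabp7 lies between 16.53 and 16.65 on all arrays.

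The myelin class had the lowest median of the 3 classes, -0.34 over its 5 tested genes, all of which averaged lower in Exp. Plekhb1, a membrane-associated protein enriched in glia, had signals of 3424, 5265.5, 3217 and 3796 on Exp 1 to 4, against 6053, 5359, 6038.5 and 5214 on Ctrl 1 to 4. Exp 1, Exp 3 and Exp 4 lay below every Ctrl array, and Exp 2 lay among the Ctrl arrays. The log2 mean was 11.93 ± 0.32 in Exp and 12.46 ± 0.12 in Ctrl (SD, n = 4 each), a difference of -0.53 (SE 0.16, limma unadjusted p = 0.00904), or 0.691 times the Ctrl level, which did not pass after adjustment.

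Mbp, myelin basic protein of the compact sheath, gave 17144, 26381, 18236 and 24181 on Exp 1 to 4, against 34503, 22115, 27401 and 24079 on Ctrl 1 to 4 in its brightest probe set. Exp 1 and Exp 3 were the lowest arrays and Ctrl 1 the highest, and the difference was -0.34 (SE 0.19, limma unadjusted p = 0.108). Without Ctrl 1 it was -0.21. Its 7 tested probe sets disagreed in size and in 1 case in sign. The second brightest, 1436201_x_at, differed by -0.39 (SE 0.26, limma unadjusted p = 0.171). Probe set 1433532_a_at gave 4796, 7561.5, 4829.8 and 4864 on Exp 1 to 4, against 8891, 7923, 6629 and 7170.1 on Ctrl 1 to 4, a difference of -0.47 (SE 0.17, limma unadjusted p = 0.0235). Probe set 1454651_x_at gave 3507, 6853, 3196 and 5322 on Exp 1 to 4, against 12411, 7963, 5773 and 6856.5 on Ctrl 1 to 4, with the largest difference of any tested member probe set, -0.79 (SE 0.30, limma unadjusted p = 0.0287). Probe sets 1419646_a_at and 1425263_a_at differed by -0.17 (SE 0.14) and -0.26 (SE 0.17), and 1425264_s_at by 0.17 (SE 0.25). All 7 probe sets read the same RNA on each array and are no replicates of each other. A name ending in _x_at marks probes that may also match other transcripts. This holds for the brightest set, for 1436201_x_at and for 1454651_x_at, the one with the largest difference. The eighth probe set fell under the filter.

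**Figure D3:**
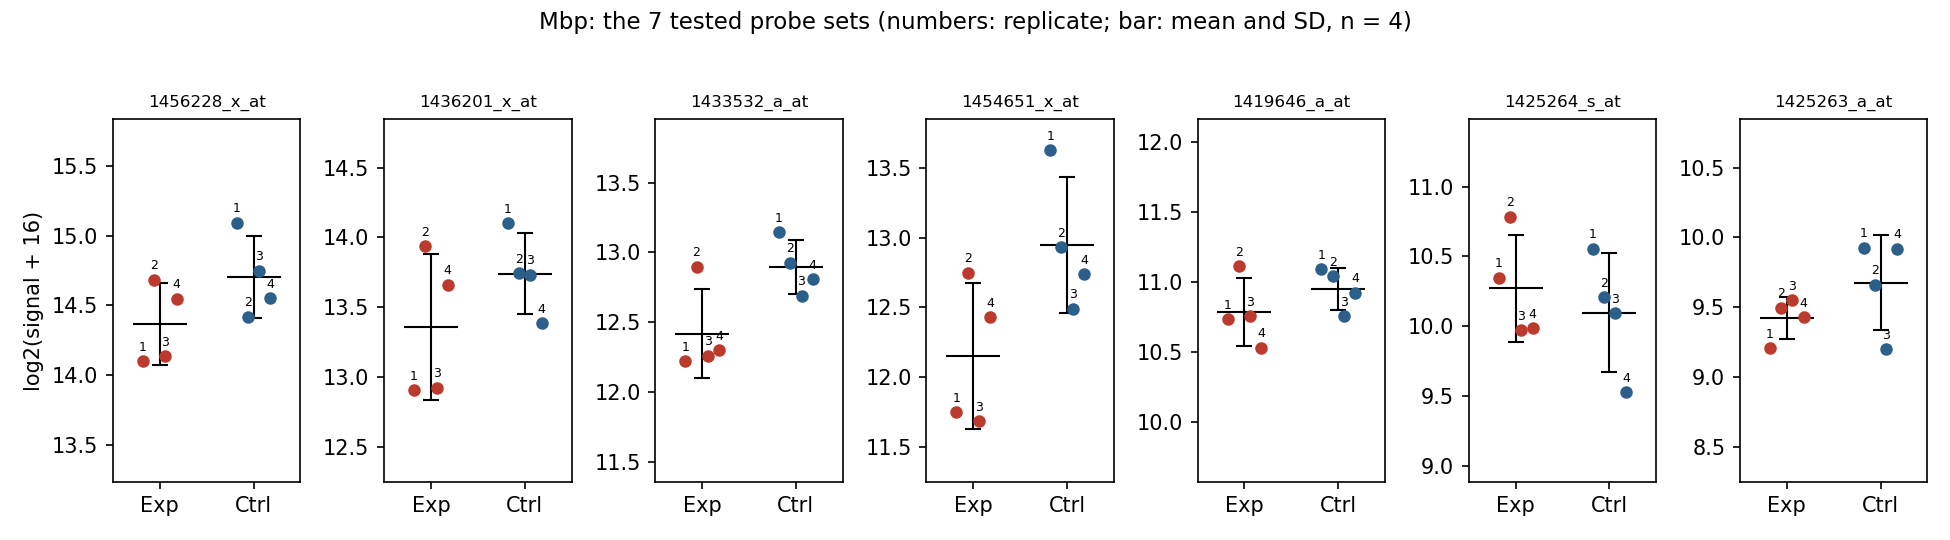
Log2(signal + 16) after quantile normalization (y axis) of the 7 tested Mbp probe sets on the Exp and Ctrl arrays (x axis); points are arrays with their numbers, bars the mean and SD, n = 4. The Exp mean is below the Ctrl mean in 6 of 7 panels, and 1425264_s_at is the exception.

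Mal, a proteolipid of myelin membranes, gave 1398.5, 2554, 1602 and 2239.7 on Exp 1 to 4, against 3086.5, 3068, 1901 and 2055 on Ctrl 1 to 4. Exp 1 and Exp 3 were again the lowest, and the difference was -0.38 (SE 0.24, limma unadjusted p = 0.141), or -0.22 without Exp 1. Its other tested probe set differed by -0.10 (SE 0.23). Cnp, an enzyme of myelinating glia, gave 14931.5, 20190.5, 17388.5 and 18017 on Exp 1 to 4, against 19523, 19055, 19723 and 19268 on Ctrl 1 to 4, and Exp 1 was the lowest and Exp 2 the highest array. Its difference was -0.14 (SE 0.11, limma unadjusted p = 0.24), while its 2 dimmer probe sets differed by 0.00 (SE 0.18) and 0.03 (SE 0.19). For the brightest, 1437341_x_at, whose name also ends in _x_at, it was -0.06 without Exp 1 and -0.21 without Exp 2. Pmp22, a membrane protein of peripheral myelin, gave 5575, 7869, 4896 and 6775 on Exp 1 to 4, against 6837, 8353.5, 6166 and 5976 on Ctrl 1 to 4. Exp 1 and Exp 3 lay below every Ctrl array and Exp 2 and Exp 4 among them, with a difference of -0.11 (SE 0.17, limma unadjusted p = 0.544).

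The 3 other myelin genes were dim. Mag, the adhesion protein between myelin and axon, had signals of 299.6, 248, 70.5 and 550.4 on Exp 1 to 4, against 535.5, 484, 372 and 209.9 on Ctrl 1 to 4. Gjb1, the connexin of Schwann cell paranodes, lay between 14.5 and 147 in Exp and between 32.5 and 95.6 in Ctrl in its brighter probe set. Gjc3, another glial connexin, gave 326, 232, 218 and 507 on Exp 1 to 4, against 445, 235, 229.5 and 373.5 on Ctrl 1 to 4. All of them fell under the filter and have no test.

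Satellite glia genes had the class median nearest to 0, -0.08, and 8 of 10 tested genes lower in Exp. Fabp7, the brain lipid-binding protein that marks immature peripheral glia, had signals of 93182, 106741, 101575 and 104364 on Exp 1 to 4, against 98368, 88063.5, 97312 and 98588.5 on Ctrl 1 to 4. In these deposited signals Exp 2, Exp 3 and Exp 4 lay above every Ctrl array, and after normalization the groups overlapped. The normalized difference was 0.02 (SE 0.08, limma unadjusted p = 0.854), with a 95% confidence interval of -0.17 to 0.20, and without quantile normalization it was 0.09. S100b, a calcium-binding protein of glia, gave 3224, 3189.9, 2445 and 2468 on Exp 1 to 4, against 3673, 4743, 3606 and 2117 on Ctrl 1 to 4. Ctrl 4 was the lowest array and Ctrl 2 the highest, with a difference of -0.26 (SE 0.22, limma unadjusted p = 0.265). It was -0.11 without Ctrl 2 and -0.48 without Ctrl 4. Apoe, the lipid carrier secreted by glia and macrophages, gave 1177, 1764, 834 and 1177 on Exp 1 to 4, against 1014, 2312, 1085 and 988 on Ctrl 1 to 4. Exp 2 and Ctrl 2 stood highest in their groups, and the difference was -0.10 (SE 0.31, limma unadjusted p = 0.76).

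The largest difference in the class was that of Slc1a3, a glutamate transporter of glia, with signals of 845, 1548, 1942 and 1400.5 on Exp 1 to 4, against 2049.9, 1530.3, 2426 and 1785 on Ctrl 1 to 4. In these deposited signals Exp 1 lay below every other array, and Exp 2 and Exp 3 lay among the Ctrl arrays. After normalization only Exp 3 lay among them, and the difference was -0.50 (SE 0.26, limma unadjusted p = 0.0843). Without Exp 1 it was -0.26. The second tested probe set differed by -0.37 (SE 0.36), with Ctrl 1 highest, at 1189.8. Of the 6 Slc1a3 probe sets only these 2 were bright enough to test, and the name of the brighter, 1443749_x_at, also ends in _x_at.

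Metrn, meteorin, a secreted factor of glial differentiation, gave 3539.9, 2987, 3742 and 3004 on Exp 1 to 4, against 3775, 3442, 3772 and 3559 on Ctrl 1 to 4. Exp 2 and Exp 4 lay below every Ctrl array, with a difference of -0.13 (SE 0.11, limma unadjusted p = 0.265). The difference was -0.08 without Exp 2 and -0.20 without Exp 3. Its other probe set differed by 0.07 (SE 0.15). Ttyh1, a chloride channel of neural progenitors and glia, gave 22613, 24939, 19177 and 21069.8 on Exp 1 to 4, against 24072, 26034.5, 22283 and 21959.6 on Ctrl 1 to 4, with overlap of the groups and a difference of -0.11 (SE 0.12, limma unadjusted p = 0.37). Without Exp 2 it was -0.18, without Exp 3 -0.04 and without Ctrl 2 -0.07. The 3 dimmer probe sets of Ttyh1 differed by -0.30 (SE 0.17), 0.06 (SE 0.15) and -0.33 (SE 0.29).

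The remaining tested satellite glia genes, each read by its brightest probe set, had differences smaller than their SE. Glul, glutamine synthetase, differed by -0.07 (SE 0.11), Ptprz1, a receptor phosphatase of glial progenitors, by -0.07 (SE 0.10), and Sparcl1, a matricellular protein, by -0.05 (SE 0.23). The other 2 Ptprz1 probe sets differed by -0.15 (SE 0.10) and 0.04 (SE 0.13). The second tested probe sets of Glul and S100b differed by -0.05 (SE 0.18) and -0.15 (SE 0.21). Cd9, a tetraspanin, differed by 0.07 (SE 0.25). Gfap, the intermediate filament of reactive glia, was under the filter, with 371.5, 191, 332 and 238 on Exp 1 to 4, against 363, 333, 442 and 432 on Ctrl 1 to 4 in its brightest probe set. Another Gfap probe set, 1426509_s_at, read 235, 164, 239.8 and 279.6 on Exp 1 to 4, against 17.7, 36.0, 15.4 and 204 on Ctrl 1 to 4, so that 3 Ctrl arrays were far below the other 5. No array had that probe set above the filter level, and no member probe set passed when the filter was left out.

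The arrays of the Exp group differed among themselves in the myelin class. The class mean, as a deviation from the 8-array mean in log2 units, was -0.42, 0.20, -0.35 and -0.03 on Exp 1 to 4, against 0.32, 0.18, 0.08 and 0.01 on Ctrl 1 to 4. All 5 tested myelin genes had their lowest signal on Exp 1 or Exp 3, as did 13 of 23 members and 27.4% of all tested genes. The precursor class lay at -0.09, -0.02, -0.14 and -0.02 on Exp 1 to 4, against 0.04, -0.02, 0.12 and 0.11 on Ctrl 1 to 4. Satellite glia genes lay at -0.10, 0.14, -0.13 and -0.14 on Exp 1 to 4, against 0.02, 0.20, 0.05 and -0.03 on Ctrl 1 to 4. Over all members the lowest array was an Exp array for 19 of 23, where 57.3% of all genes had theirs in Exp.

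**Figure D4:**
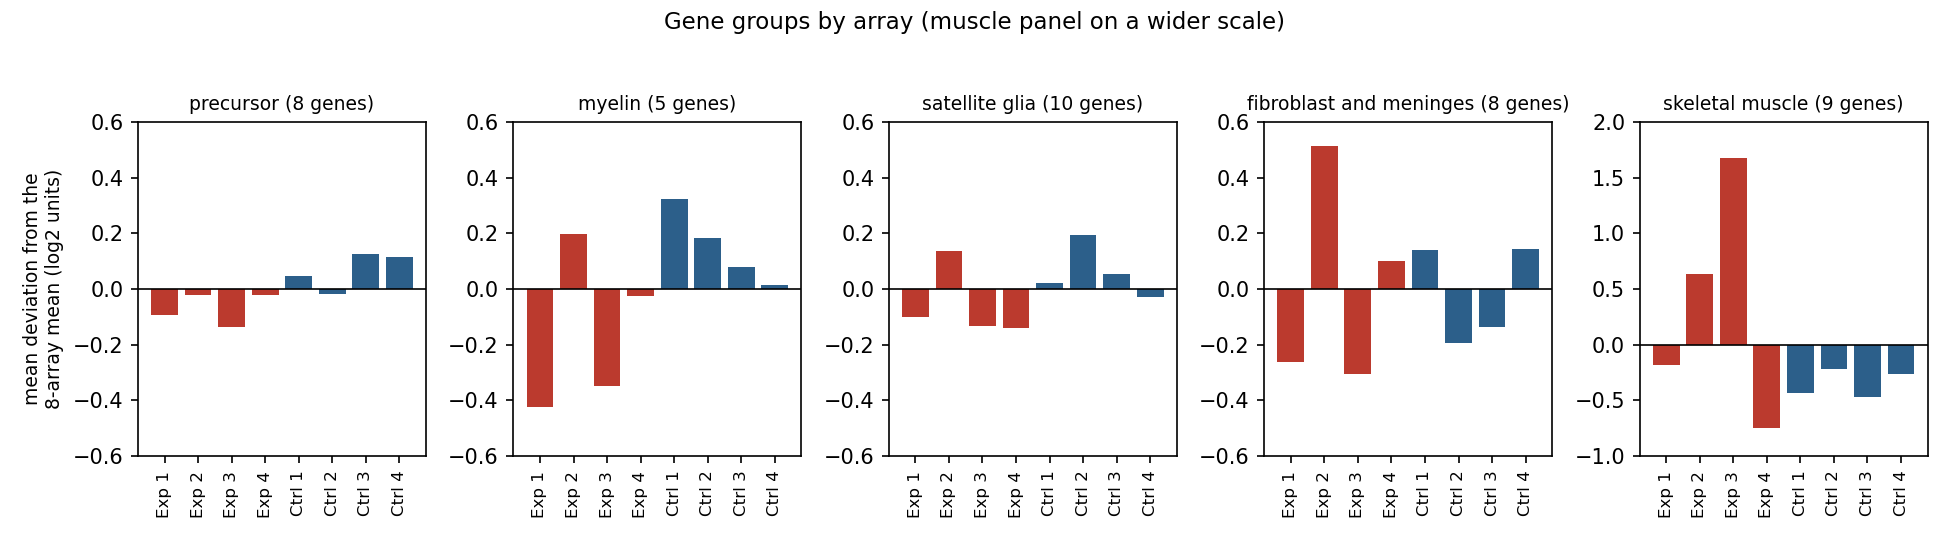
Mean deviation of each gene group from its 8-array mean (y axis, log2 units) on every array (x axis), for the 3 glial classes and for fibroblast and muscle markers, the last on a wider scale. Myelin genes were lowest on Exp 1 and Exp 3, at -0.42 and -0.35, and muscle markers highest on Exp 3, at 1.68.

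Markers of other cells also varied within Exp. The 8 fibroblast and meninges markers, all tested, lay at -0.26, 0.51, -0.31 and 0.10 on Exp 1 to 4, with Exp 2 highest and Exp 1 and Exp 3 lowest as in the myelin class, against 0.14, -0.20, -0.14 and 0.14 on Ctrl 1 to 4. Their summed signal ran from 94455 to 163437 in Exp and from 108875 to 141392 in Ctrl. Skeletal muscle markers, 9 of 10 tested, lay at -0.18, 0.63, 1.68 and -0.75 on Exp 1 to 4, against -0.47 to -0.21 in Ctrl, with sums of 4398 to 56294 in Exp and 5602 to 9397 in Ctrl. Epithelial markers, 6 of 8 tested, lay at -0.06, 0.62, 0.75 and -0.52 on Exp 1 to 4, against -0.25 to -0.13 in Ctrl, with sums of 4515 to 10623 in Exp and 5716 to 6769 in Ctrl. Of the tested markers, 8 of 9 for muscle and 5 of 6 for epithelium averaged higher in Exp, with an unadjusted p below 0.05 for 3 and 2 of them, against 1.47% of all genes. Of 6 tested macrophage markers 4 averaged lower in Exp and 2 of them had such a p, against 2.26% of all genes, with sums of 13233 to 22685 in Exp and 16447 to 19820 in Ctrl. No value in the whole deposited table was at or below 0, so a signal above 0 does not by itself show a cell type present. The lowest single signal of a tested muscle marker was 84.0, under the filter level of 333. The part of these other cells in the glial values was not tested. The mean of the 9 sensory neuron markers stayed between -0.05 and 0.03 on every array, while single markers varied more. The number of members that averaged lower in Exp was 20 of 23 without both Exp 2 and Exp 3, with Fabp7 now lower and Foxd3 higher, 17 without Exp 3 alone and 23 without Exp 2 alone.

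Other genes linked to these cells, from lists that were, like the members, chosen with earlier results known, gave no call. Of 35 further Schwann lineage, neuregulin and myelin genes on the array 29 were tested, 13 averaged higher and 16 lower, with a median of -0.03. That list is not limited to glial genes. It holds Nrg1, a neuregulin, which axons present, so its counts and median do not stand for Schwann cells alone. An unadjusted p below 0.05 was found for 1 of 29 higher, against 1.47% of all genes, and 2 of 29 lower, against 2.26%. Egr2, the factor that switches on myelin genes, had signals of 522, 572, 149 and 2098 on Exp 1 to 4, against 9438, 511, 5738 and 5303 on Ctrl 1 to 4. In these deposited signals Ctrl 2 lay below Exp 1, Exp 2 and Exp 4. After normalization it lay below Exp 2 and Exp 4 only, and the difference was -2.66 (SE 0.97). Itgb8, an integrin subunit, differed by -0.54 (SE 0.21), Gal3st1, which makes the myelin lipid sulfatide, by -0.31 (SE 0.17), and Cdkn1c, an inhibitor of cell division, by 0.33 (SE 0.14). Of 17 further satellite and radial glia genes on the array 16 were tested, 6 higher and 10 lower, with a median of -0.12. Such a p was found for 0 of 16 higher and for 1 of 16 lower, Fbln2, against the same shares. Fbln2, a matrix protein, differed by -0.36 (SE 0.16), Id3, an inhibitor of bHLH factors, by -0.27 (SE 0.15), Kcnj10, the potassium channel of satellite glia, by -0.23 (SE 0.15), and Nes, nestin of progenitors, by -0.35 (SE 0.25). None of these genes passed after adjustment over all probe sets.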

How the data were processed

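The authors' deposited table holds 1 linear intensity per probe set and array. No source used here names the software behind them. The trimmed mean, without the lowest and highest 2%, was 2500 in every array, so differences in total signal between arrays are removed. Groups and numbers came from the sample titles, and all columns were mapped.

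Intensities were taken as log2(signal + 16) and quantile normalized (medians differed by up to 0.203). The 64 control probe sets and those with a mean under the 40th percentile were left out. Exp was set against Ctrl with limma 3.58.1 in R 4.3.3 (lmFit and eBayes), by two-sided tests adjusted by Benjamini-Hochberg over 27022 probe sets at a 5% false discovery rate. The code was tested on simulated data with known changes. Symbols came from the platform annotation, updated by Entrez identifier through RefSeq's GRCm38.p6 table: 34945 probe sets had 1 name, 932 several and 9160 none, and 34741 of the first matched. A gene was read by its tested probe set with the highest mean. Figures used matplotlib 3.10.9.

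The members, lists and tests were chosen with earlier results of these data known. Named in full were the 4 genes per class with the smallest p, plus Sox10, Erbb3, Mbp, Pmp22, Fabp7, S100b and Apoe, and up to 4 genes of each further list. Same-numbered Exp and Ctrl arrays showed correlations of their deviations of 0.016, 0.05, -0.074 and -0.123, so the numbers were not taken as pairs.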

Additional observations from a re-analysis of the deposited data

Results flagged for a closer look

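Dixon's 95% limit for a sample far from the others was applied to the 4 arrays of each group, for the tested members, the class means and 2 control measures. One array stood apart in 3 of 58 such sets, where chance gives about 2.9.

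Tfap2b on Exp 4 stood at 10.27 (log2), below the other Exp arrays at 10.58 to 10.63. Without Exp 4 its log2 fold change was -0.15. Apoe on Ctrl 2 stood at 11.21, above the other Ctrl arrays at 9.95 to 10.12, and without Ctrl 2 its log2 fold change was 0.20. The mean of the satellite glia genes on Exp 2 stood at 0.14, above the other Exp arrays at -0.14 to -0.10, and without Exp 2 the class median was -0.15. Whether a technical or a biological difference lies behind these values was not tested.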

How the results depend on the processing

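No member probe set passed under any of the alternatives run: pseudocounts of 1 and 64, median centring or no quantile normalization, no filter or a 60th percentile filter, the replicate block, trend and robust options, array weights, and leaving out each array, or both Exp 2 and Exp 3 (added after seeing the data). The lowest adjusted p of a named member was 0.612, for Plekhb1 without Exp 2. The 1 probe set called on the whole array was no longer called, at 0 probe sets, without a filter, with a filter at the 60th percentile and with the replicate block. Leaving out single arrays gave 0 to 1 such calls, 17 to 23 members lower in Exp, and class medians of -0.16 to -0.09 for precursor, -0.44 to -0.21 for myelin and -0.15 to -0.03 for satellite glia genes. The lowest myelin and satellite values came without Exp 2, and the highest without Ctrl 1 and without Exp 3. The myelin median was -0.22 without Exp 1 and -0.24 when each gene's probe sets were averaged. Centring on medians moved the precursor median to -0.17. The block left the estimates as they were (member calls 0), and the numbers share no stated pairing: 0 of 4 Exp arrays correlated best with their own number. Directions reversed for Foxd3 (0.017) and Fabp7 (-0.01) without Exp 2 and Exp 3, for Dhh with median centring (-0.024) and for Sparcl1 with array weights (0.064). Leaving out single arrays also turned the sign of Erbb3 (-0.052 to 0.010), Dhh (-0.13 to 0.31), Pmp22 (-0.227 to 0.002), Fabp7 (-0.004 to 0.036), Apoe (-0.28 to 0.20), Cd9 (-0.10 to 0.29) and Sparcl1 (-0.20 to 0.09). Without changing sign, single arrays moved Foxd3 (-0.164 to -0.023), Tfap2a (-0.128 to -0.039), Glul (-0.127 to -0.036) and Ptprz1 (-0.12 to -0.02) by over 1.5 times. The same held for Tfap2b (-0.277 to -0.152), Mbp (-0.441 to -0.207), Mal (-0.524 to -0.219) and Cnp (-0.21 to -0.064). It also held for S100b (-0.476 to -0.107), Slc1a3 (-0.69 to -0.257), Metrn (-0.196 to -0.078) and Ttyh1 (-0.178 to -0.039). The causes were not tested. Low signals are compressed by the pseudocount, and 23 of 66 member probe sets were too dim to test.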
